A study of Mus musculus with 6 samples.

Results

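Integrins, laminins and the proteins that anchor epithelial cells to their basement membrane were followed across the mammary tumor profiles of this series. The members were taken by gene symbol, without using their levels: all integrin alpha and beta subunits, all laminin chains, the hemidesmosome linkers Dst and Plec, the tetraspanin Cd151, the matrix receptors Dag1 and Ddr1, and the basement membrane proteins Nid1, Nid2 and Hspg2. Of 45 genes that fitted, 42 had a row of their own among 22001 genes with such a row. The other 3 (Itga10, Cd151 and Lamb2) stood only in rows shared with neighbouring genes. The series set tumors labelled PyMT Elp3 cKO, where MMTV-Cre removes Elp3, against tumors labelled PyMT control. Both carry the polyoma middle T oncogene, both come from female FVBN mice killed at 7 weeks, and each label covers 3 tumors of like size from 3 mice. MMTV-Cre acts in mammary epithelium, and the labels do not say whether control mice carried Cre. PolyA RNA of cells enriched for epithelium was sequenced.

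Integrins are paired receptors of 1 alpha and 1 beta chain that bind matrix proteins outside the cell and the cytoskeleton inside it. Laminins are cross-shaped trimers of an alpha, a beta and a gamma chain, and they form the sheet on which mammary epithelium rests. In hemidesmosomes, integrin alpha6 beta4 holds laminin outside and is tied to keratin filaments inside by plectin and the BPAG1 product of Dst. In the mammary gland these contacts are known mainly from the basal cells, which touch the basement membrane, while luminal cells face the lumen.

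Levels are the authors' FPKM, a unit that scales fragment numbers by transcript length and library size, so genes can be set side by side. How the authors scaled the libraries is not stated. Each Elp3 cKO column equals the control column of the same number in all 24308 rows, and columns of different number share no value above 0. The table thus holds 3 distinct profiles, each under both labels. They are called profiles 1, 2 and 3, no genotype is given to any of them, and no test between genotypes or between profiles was possible. Elp3 itself stood at 15.6, 17.9 and 19.0 FPKM in profiles 1, 2 and 3. Summed FPKM lay between 621793 and 636842 per profile. The depth in reads is unknown, so no counting interval can be given. Profile 3 stands apart by a salivary gene, Smr3a, at 561 FPKM against 0.615 and 0.239 in profiles 1 and 2. All 7 luminal markers listed were at a mean of 1 FPKM or more, with Krt18 at 4232, 5010 and 4959 FPKM. All 8 basal markers were too, and 2 of 7 leukocyte markers, against 49.0% of all genes.

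Of the 42 members, 28 had a mean of 1 FPKM or more, which is 66.7%, against 49.0% of all genes. The members' median was 8.83 FPKM, against 0.828 over all genes. The best expressed members were Itgb1, Itga3, Itga6, Lamb3 and Itgb4, and Itgb1 ranked 279 among the 22001 genes. At the other end, all 7 integrin genes of leukocytes had means under 1 FPKM. No member was listed at 0 in all profiles.

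**Figure D1:**
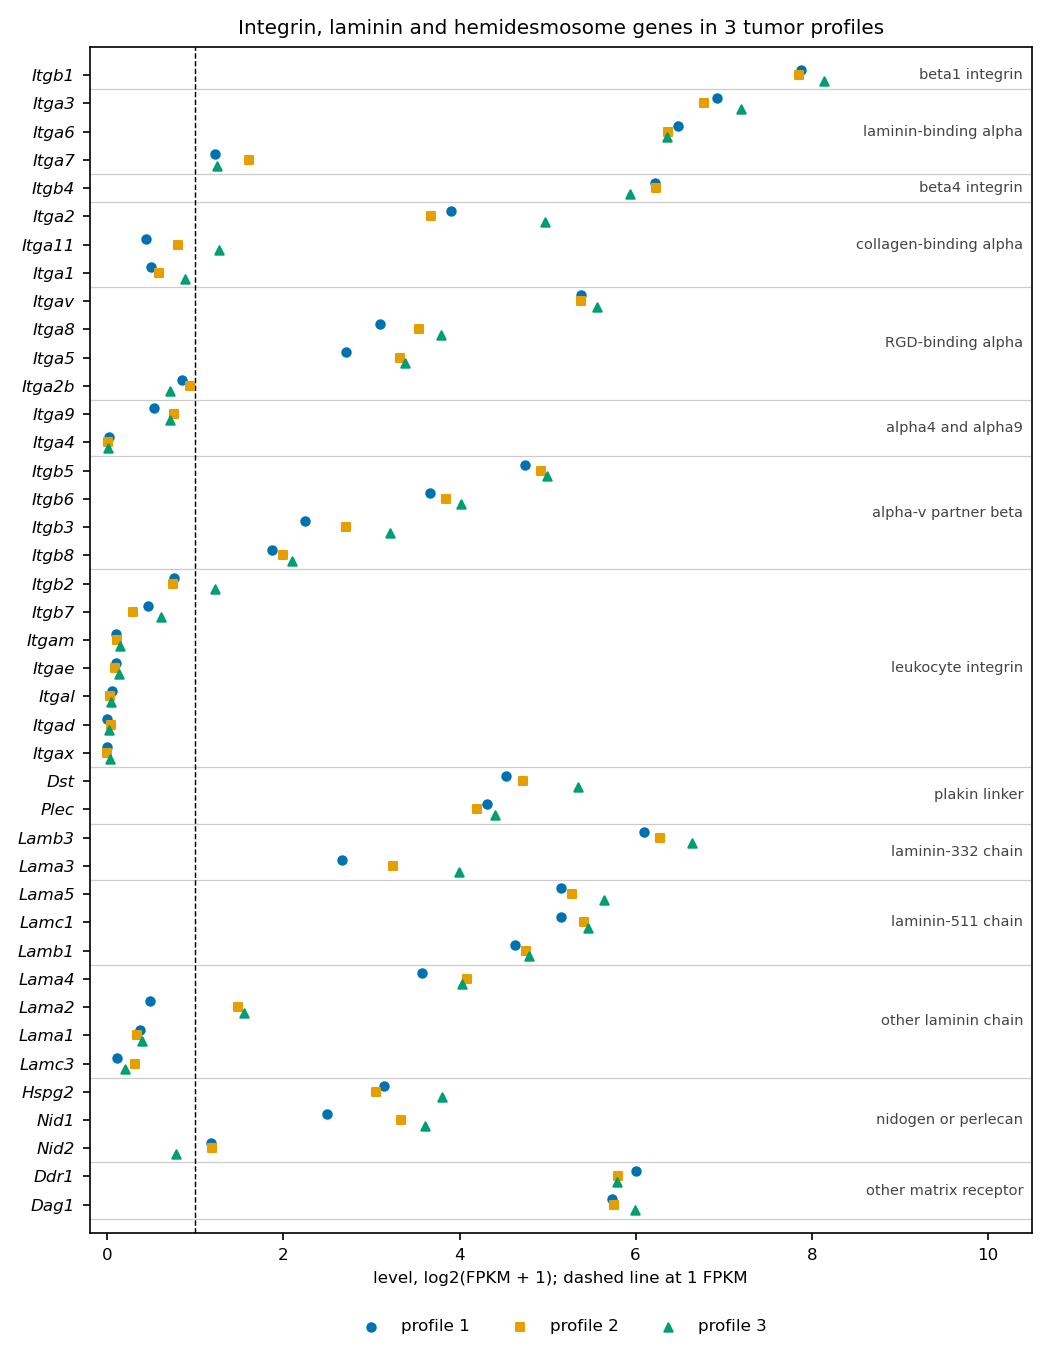
Level of the members described here in the 3 profiles, as log2(FPKM + 1), with genes grouped by role and the dashed line at 1 FPKM. The beta1 integrin and the laminin-binding alpha subunits Itga3 and Itga6 stand at the right, and the leukocyte integrins at the left edge.

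Promoter sequences show a feature of the members that their choice did not use. RefSeq promoter windows (GRCm38.p6, 250 bases before to 50 after a gene's start) were found for 26 of the 42 members. Of these, 6 had more than 1 window, and their CpG number is that of the window with most CpG dinucleotides. The 18 of these members at 1 FPKM or more had a median of 21.5 CpG per window (range 1 to 47), and the 8 members under 1 FPKM had a median of 8 (5 to 16). Over all genes the medians were 23 at 1 FPKM or more and 4 under it, so the members follow a difference that runs through the whole table. Letter matches were counted over every window, so a gene with several windows counts more than once. The 18 members at 1 FPKM or more have 26 windows. The letters GGGCGG, read on both strands, were in 18 of these 26 windows (69.2%), against 64.6% of the windows of all genes at that level. The letters TATAAA, also read on both strands, were in 0 of 26 windows of members at 1 FPKM or more, against 6.82% of the windows of all genes at that level, and in 0 of 8 windows of members under it, against 18.8%. Such matches describe these windows only. Printed next, with each CpG in capitals, are Itgb1, the most abundant member (chr8:128685404-128685703, plus strand), Dag1, with the most CpG (chr9:108263766-108264065, minus strand), Lamb3, an abundant member with few (chr1:193301993-193302292, plus strand), and the leukocyte gene Itgax, nearly silent here (chr7:128129300-128129599, plus strand).
Itgb1: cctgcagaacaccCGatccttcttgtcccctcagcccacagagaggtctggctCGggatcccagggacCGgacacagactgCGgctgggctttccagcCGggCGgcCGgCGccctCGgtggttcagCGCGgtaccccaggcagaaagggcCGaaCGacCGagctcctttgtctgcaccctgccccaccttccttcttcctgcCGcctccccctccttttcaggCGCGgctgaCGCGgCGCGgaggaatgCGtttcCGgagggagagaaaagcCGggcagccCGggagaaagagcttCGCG
Dag1: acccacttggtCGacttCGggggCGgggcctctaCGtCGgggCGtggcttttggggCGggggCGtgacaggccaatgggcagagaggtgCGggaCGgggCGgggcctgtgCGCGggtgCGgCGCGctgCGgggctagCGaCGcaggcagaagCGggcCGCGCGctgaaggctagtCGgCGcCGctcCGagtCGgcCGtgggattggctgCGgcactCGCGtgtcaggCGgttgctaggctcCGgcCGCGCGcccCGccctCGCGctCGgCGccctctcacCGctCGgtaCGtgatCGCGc
Lamb3: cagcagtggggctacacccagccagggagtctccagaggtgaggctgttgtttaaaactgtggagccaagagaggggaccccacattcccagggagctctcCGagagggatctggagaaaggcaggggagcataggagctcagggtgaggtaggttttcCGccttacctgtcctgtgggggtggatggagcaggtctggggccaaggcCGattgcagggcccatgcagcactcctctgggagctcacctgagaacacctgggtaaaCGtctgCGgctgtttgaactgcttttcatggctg
Itgax: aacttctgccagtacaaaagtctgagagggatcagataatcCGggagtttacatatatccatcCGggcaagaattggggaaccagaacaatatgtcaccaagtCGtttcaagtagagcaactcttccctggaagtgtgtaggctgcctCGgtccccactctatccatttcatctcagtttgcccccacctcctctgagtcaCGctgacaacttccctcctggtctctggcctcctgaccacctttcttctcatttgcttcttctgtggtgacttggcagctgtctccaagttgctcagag

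**Figure D2:**
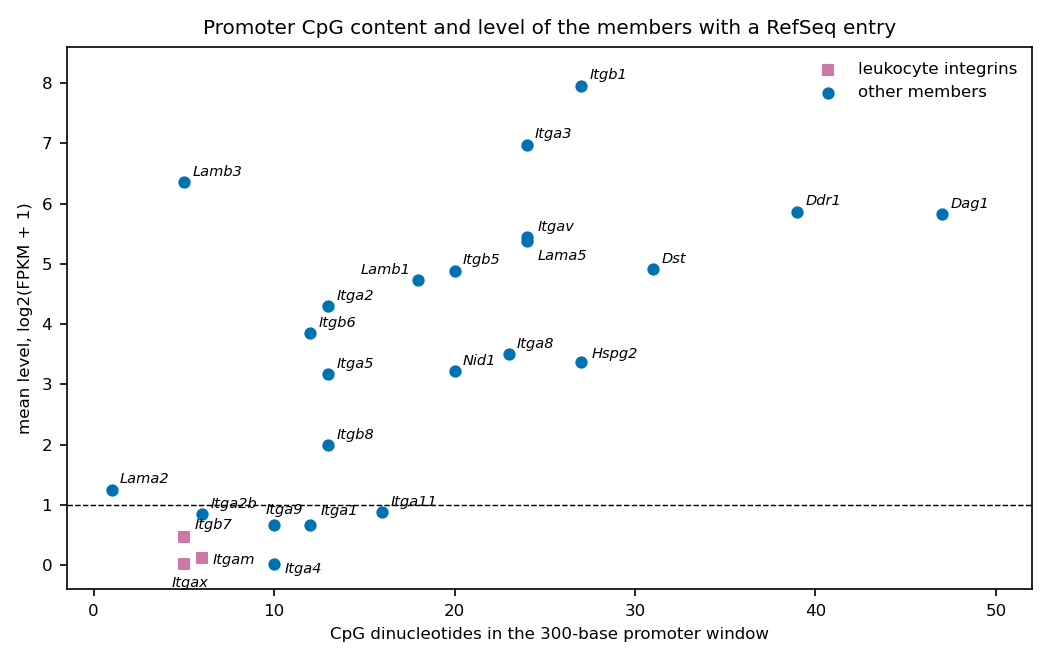
Number of CpG dinucleotides in the promoter window (horizontal) against mean level as log2(FPKM + 1) (vertical) for the 26 members with a RefSeq window, with the dashed line at 1 FPKM. The 3 leukocyte integrins lie at 5 or 6 CpG near the bottom, and Lamb3 lies high at 5 CpG.

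The 27 CpG of Itgb1 and the 47 of Dag1 lie along most of their windows, while Lamb3 and Itgax have 5 each. Lamb3 and Itgax thus share a low CpG number at mean levels of 80.7 and 0.00851 FPKM. The windows of both Lamb3 and Itgax lack GGGCGG on either strand. No test was made of CpG number against level, since the points are genes and not replicates.

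Itgb1 encodes beta1, the chain that pairs with most alpha subunits, and its row spans chromosome 8, 128685654 to 128733579 (mm10). It stood at 234, 231 and 280.0 FPKM, profile 3 being the highest. It made up 66.4% of summed beta subunit FPKM (range over profiles 64.6% to 70.1%). Among its partners, Itga3, the alpha chain of a receptor for laminin-332 and laminin-511, was the most abundant at 121, 109 and 146 FPKM. Itga6, which pairs with beta1 or beta4, stood at 88.1, 81.5 and 80.7 FPKM, below Itga3 in every profile. Itga7, the laminin receptor chain best known from muscle, was near the lower limit at 1.33, 2.04 and 1.37 FPKM, and its exons overlap those of Mettl7b on the opposite strand. The partner alpha subunits with a row of their own, with Itga6 and Itgav counted in, summed to slightly more than Itgb1. The ratio of Itgb1 to that sum was 0.838, 0.866 and 0.851 in profiles 1, 2 and 3. Without Itga6 and Itgav, which have other partners too, it was 1.56, 1.60 and 1.38.

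The hemidesmosome receptor was expressed from both of its genes. Itgb4, the beta chain with a long intracellular tail, pairs only with alpha6, and its row spans chromosome 11, 115974725 to 116012719. It stood at 73.3, 74.4 and 60.1 FPKM, profile 3 being the lowest. The ratio of Itgb4 to Itga6 was 0.833, 0.913 and 0.745, so the beta4 chain was the less abundant transcript in each profile. Itga6 varied least of all members at 1 FPKM or more, with a difference of 0.12 between its highest and lowest profile on log2(FPKM + 1). The linkers were lower than the receptor. Dst, whose row covers the epithelial, muscle and neural products of the gene together, stood at 22.0, 25.4 and 39.7 FPKM. Plec, plectin, stood at 18.9, 17.4 and 20.1 FPKM, and its exons overlap those of Parp10 on the same strand. The ratio of Dst to Plec was 1.16, 1.46 and 1.97, profile 3 having the most Dst. Cd151, a tetraspanin of hemidesmosomes, shares a row with Efcab4a and Pnpla2 at 166, 191 and 214 FPKM, and its own part cannot be told apart.

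Other parts of this junction were present as well. Col17a1, the transmembrane collagen of hemidesmosomes, stood at 7.38, 11.6 and 7.29 FPKM. The basal keratins Krt14 and Krt5, to which plectin ties the junction, stood at 239, 320 and 215 FPKM and at 59.2, 78.7 and 73.5 FPKM. Krt14 and Col17a1, like Itgb4, were highest in profile 2 and lowest in profile 3, though Col17a1 hardly differed between profiles 1 and 3. Itgb4 hardly differed between profiles 1 and 2, at 73.3 and 74.4 FPKM. The junction genes shared no single order: Krt5 was lowest in profile 1, and Dst and Plec were highest in profile 3.

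**Figure D3:**
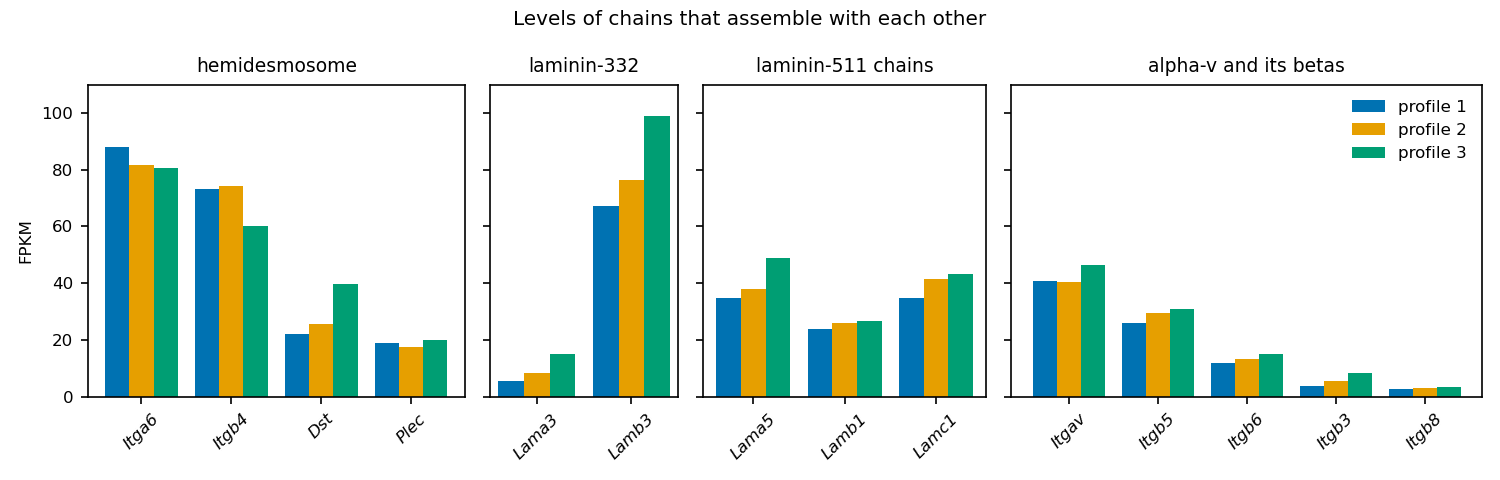
FPKM of chains that assemble with each other, with 1 bar for each of the 3 profiles. Itgb4 stays below Itga6, Lama3 stays far below Lamb3, and the laminin-511 chains lie closer together.

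The laminin chains differed widely in level. Laminin-332, the ligand of hemidesmosomes, holds the chains of Lama3 and Lamb3. Lamb3 stood at 67.2, 76.3 and 98.7 FPKM. Lama3, at chromosome 18, 12333933 to 12584337, stood at 5.36, 8.46 and 14.9 FPKM. Both were lowest in profile 1 and highest in profile 3. Lama3 was 0.0799, 0.111 and 0.151 of Lamb3. Lama3 yields a long and a short product from different starts, and the deposited value sums over its transcripts, so it cannot say which product was made.

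Laminin-511, the main laminin of many epithelial basement membranes, is made from Lama5, Lamb1 and Lamc1. Lama5 stood at 34.6, 37.8 and 48.9 FPKM, and it held 67.1%, 58.8% and 60.1% of summed laminin alpha FPKM. Lamc1 stood at 34.6, 41.6 and 43.1 FPKM, and the ratio of Lama5 to Lamc1 was 1.00, 0.910 and 1.13. Lamb1 was the lowest of the trio at 23.7, 26.0 and 26.6 FPKM. Lamb2, which can take the place of Lamb1, shares a row with Usp19 at 69.3, 81.2 and 71.9 FPKM, so its own level is not known.

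The other alpha chains were lower. Lama4, the laminin alpha chain of vessels and other mesenchymal tissue, stood at 10.9, 15.9 and 15.3 FPKM. Lama2, the chain of muscle and nerve basement membranes, stood at 0.395, 1.80 and 1.94 FPKM, with profile 1 well below the others. Lama1, a chain mainly of the embryo, stood at 0.295, 0.263 and 0.315 FPKM. Lamc3 lay between 0.0813 and 0.249 FPKM. All 8 laminin chains at 1 FPKM or more were lowest in profile 1, where 40.1% of all genes at that level were lowest.

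Of the collagen-binding alpha subunits, Itga2, the epithelial and platelet receptor chain, was the one clearly expressed, at 13.9, 11.8 and 30.2 FPKM. Profile 3 held 2.17 times the level of profile 1. Its neighbour on chromosome 13, Itga1, lies 25884 bases away and stood at 0.414, 0.501 and 0.840 FPKM. Itga11, a chain of fibroblasts, stood at 0.354, 0.742 and 1.40 FPKM. Itga10, the chain best known from cartilage, shares its row with another gene and has no level of its own. Ddr1, a collagen-binding receptor tyrosine kinase of epithelium, stood at 63.2, 54.7 and 54.4 FPKM and was highest in profile 1.

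Subunits that bind the Arg-Gly-Asp sequence of fibronectin, vitronectin and similar ligands came next. Itgav stood at 40.7, 40.5 and 46.2 FPKM. Its beta partners besides beta1 were Itgb5, at 25.8, 29.3 and 30.8 FPKM, and Itgb6, an epithelial chain whose receptor activates latent TGF-beta, at 11.7, 13.4 and 15.1 FPKM. Itgb3 stood at 3.75, 5.54 and 8.29 FPKM and Itgb8 at 2.66, 2.99 and 3.29 FPKM. These partners summed to 1.08, 1.27 and 1.24 times Itgav, and all 4 were lowest in profile 1 and highest in profile 3, where 40.1% of all genes at 1 FPKM or more were lowest in profile 1 and 36.5% were highest in profile 3. Itga5, the classical fibronectin receptor chain, stood at 5.56, 9.02 and 9.38 FPKM. Itga8, which binds nephronectin and other matrix ligands, stood at 7.58, 10.6 and 12.9 FPKM, in the range of Itga5. Itga2b, the platelet chain that pairs with beta3, stood at 0.805, 0.920 and 0.645 FPKM. Of the platelet markers, 3 of 4 had means under 1 FPKM, while 49.0% of all genes were at 1 FPKM or more. Gp9 was listed at 0 in all profiles.

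Leukocyte integrins were near the bottom of the range. Itgb2, the common beta chain of leukocytes, led them at 0.687, 0.683 and 1.34 FPKM, and Itgb7 stood at 0.375, 0.230 and 0.532 FPKM. Itgam, a chain of macrophages and neutrophils, lay between 0.0702 and 0.109 FPKM, Itgae between 0.0628 and 0.0946, and Itgal between 0.0227 and 0.0370. Itgax was listed at 0 in profiles 1 and 2, and Itgad at 0 in profile 1. The 7 genes together summed to 1.24, 1.10 and 2.14 FPKM. Leukocyte markers summed to 3.40, 2.87 and 5.17 FPKM, with Ptprc, the pan-leukocyte marker, at 0.0825, 0.0677 and 0.0969 FPKM and the T cell gene Cd3e at 0 in profiles 1 and 2. Both sums were highest in profile 3, and the part of leukocytes in these values was not tested. Itga4, shared by lymphocytes and other cells, had at most 0.0164 FPKM, and Itga9 stood at 0.444, 0.696 and 0.633 FPKM. Exon overlaps with other coding genes also touch Itga1, Itga4, Itgam, Itgad and Nid2, and reads at the shared bases cannot be told apart.

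Among proteins that link laminin to the rest of the basement membrane, Nid1, which bridges laminin and collagen IV, stood at 4.66, 9.08 and 11.2 FPKM. Its relative Nid2 stood at 1.27, 1.29 and 0.717 FPKM and was lowest in profile 3, where Nid1 was highest. Hspg2, perlecan, a heparan sulfate proteoglycan, stood at 7.85, 7.28 and 12.9 FPKM. Dag1, dystroglycan, a laminin receptor outside the integrin family, was more abundant at 51.9, 52.9 and 62.8 FPKM.

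The median spread between profiles was wider for the members than for all genes, and it rested on profile 3. Over the 28 members at 1 FPKM or more, the median difference between highest and lowest profile was 0.41 on log2(FPKM + 1), against 0.27 over all 10770 genes at that level. A difference of 0.5 or more was seen in 12 of 28 members (42.9%), against 17.7% of all genes. A difference of 1 or more was seen in 4 of 28, against 3.65% of all genes: Lama3 at 1.32, Itga2 at 1.29, Nid1 at 1.11 and Lama2 at 1.08. Without profile 3 the members' median was 0.18, against 0.16 for all genes, and only Lama2 still differed by 1 or more. Without profile 1 it was 0.28, against 0.14, and Itga2 alone did.

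**Figure D4:**
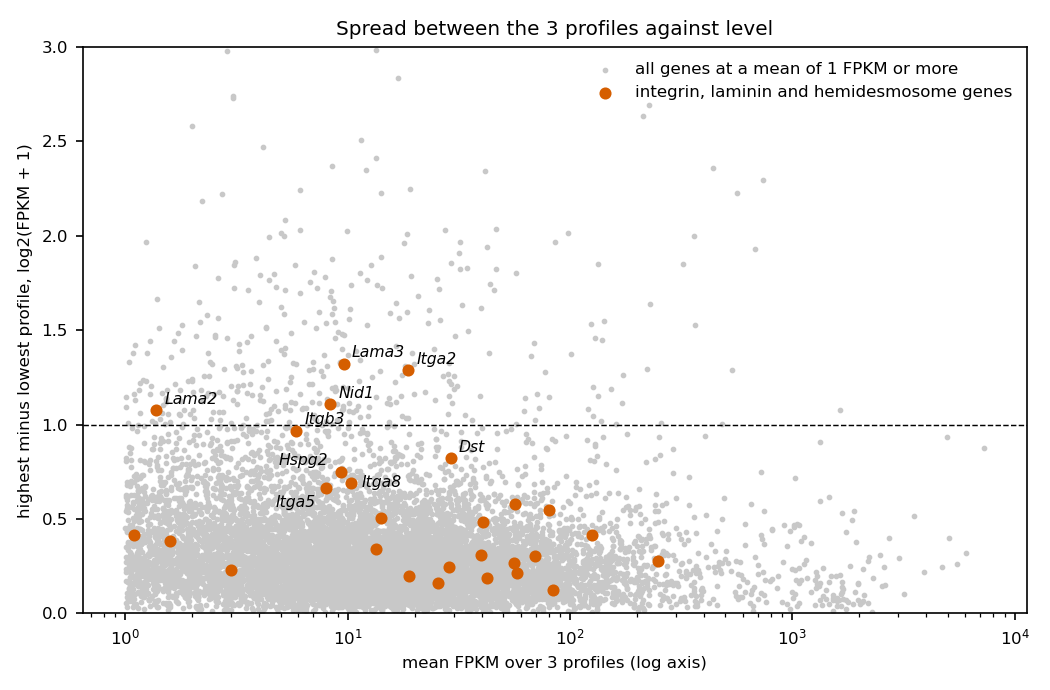
Difference between the highest and lowest profile on log2(FPKM + 1) (vertical, shown up to 3, beyond which 25 of all genes lie) against mean FPKM on a log axis, for all genes at 1 FPKM or more (grey) and the 28 members among them (orange). Lama3, Itga2, Nid1 and Lama2 lie above the dashed line at 1.

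Most members leaned the same way between the profiles. Profile 3 was the highest in 22 of 28 members (78.6%), against 36.5% of all genes at 1 FPKM or more. It is also the profile with the salivary gene Smr3a at 561 FPKM. The part of salivary tissue in the members' values was not tested. Profile 1 was the lowest in 18 of 28 (64.3%), against 40.1% of all genes. The authors' summary column, described at the end, lay above the highest profile in 10 of 28 members, against 15.6% of all genes, and below the lowest in 4, against 17.6%. Leaving profile 3 out, profile 2 was above profile 1 in 20 of 28 members, against 52.6% of all genes. The 6 members not highest in profile 3 were Itga6, Itgb4, Ddr1, Lama4, Itga7 and Nid2. Marker lists of other cells differed between the profiles too, but not all in this order. The 6 fibroblast markers, all at 1 FPKM or more on average and none at 0, summed to 70.8, 149 and 245 FPKM. The smooth muscle genes of the basal list were lowest in profile 1 too, with Acta2 at 18.5, 34.3 and 74.0 FPKM. By contrast, Krt14 and Trp63 were lowest in profile 3, Trp63 at 5.55, 7.80 and 4.84 FPKM. Of the 8 basal markers, 6 were lowest in profile 1, against 40.1% of all genes. Profile 3 was the highest in 4 of them, against 36.5% of all genes, and profile 2 in 4. The 8 basal markers summed to 519, 664 and 586 FPKM. The 6 endothelial markers summed to 27.5, 29.0 and 12.6 FPKM, lowest in profile 3, and 4 pericyte markers to 1.99, 5.37 and 3.79. None of the basal, endothelial or pericyte markers was listed at 0 in all profiles. The 7 luminal markers, whose sum was 8609, 9451 and 9523 FPKM, varied less. The part of these cells in the members' values was not tested. In bulk RNA, fewer cells of a type and less RNA per cell cannot be told apart.

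Genes that work with the members were described from lists. Of 30 integrin adaptors and focal adhesion genes measured, 26 reached 1 FPKM on average, against 49.0% of all genes. The list's median was 28.1 FPKM (range over profiles 23.4 to 31.1). Actn4 and Actn1, which crosslink actin, led the list at 358, 427 and 439.6 FPKM and at 369.7, 345 and 369 FPKM. The list's median difference between profiles, 0.29, was close to that of all genes. Of 21 further basement membrane genes, 15 reached 1 FPKM on average, against 49.0% of all genes. Of these 15, 13 were lowest in profile 1, against 40.1% of all genes at that level. The list was led by Sparc, a collagen-binding matrix protein, at 53.8, 109 and 141 FPKM, and by Agrn, agrin, at 76.9, 85.4 and 104 FPKM. Its median difference was 0.99, wider than that of the laminin chains at 0.53.

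For the lists that follow, the share of all genes at 1 FPKM or more was 49.0%. Of 24 other integrin ligands, 18 were at 1 FPKM or more and Fga was listed at 0. Cyr61 and Thbs1, secreted matricellular proteins, led them at 896, 865 and 1169 FPKM and at 515, 541 and 625 FPKM. Of 22 genes for the dystroglycan complex and its glycosylation, 17 were at 1 FPKM or more. Their median difference was 0.18, against 0.27 over all genes at that level. Tmem5 and Sntb2 led that list at 35.1, 32.2 and 33.4 FPKM and at 26.4, 25.9 and 25.7 FPKM. Of 14 other matrix receptor genes, 12 were at 1 FPKM or more. Rpsa, the gene of ribosomal protein SA, led that list at 925, 945 and 957 FPKM. Its level therefore cannot be read as that of a matrix receptor alone. The syndecan Sdc4 followed at 500.1, 519 and 432 FPKM. Of 6 hemidesmosome and tetraspanin partners, all were at 1 FPKM or more, led by the tetraspanins Cd63, at 743, 820.1 and 623 FPKM, and Cd9, at 729, 639 and 739 FPKM. Of the marker lists, the leaders by mean were Krt18 at 4734 and Krt8 at 3192 FPKM for luminal cells, Krt14 at 258 and Krt17 at 204 for basal cells, and Dcn at 46.5 and Col1a1 at 34.7 for fibroblasts. They were Emcn at 7.57 and Cdh5 at 6.55 FPKM for endothelium, Pdgfrb at 2.74 and Rgs5 at 0.434 for pericytes, Lyz2 at 2.29 and Csf1r at 1.11 for leukocytes, and Pf4 at 1.42 and Ppbp at 0.555 for platelets. Schwann cell markers were led by Sox10 at 88.6 and Mbp at 21.3 FPKM.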

How the data were processed

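RNA sequencing values of 6 sample columns, 3 per label, were read from 1 deposited table of FPKM. The submitters' processing notes name TopHat2 (2.0.9), Cufflinks (2.1.1), Cuffdiff and the mm10 build. The role of each, the annotation, any filter and the scaling between libraries are not stated there, and the library protocol is not described as strand-keeping. The authors' summary column of FPKM was given no sample, and 0 columns stayed unmatched. The unit needs a test on a log scale, but same-numbered columns of both labels are identical, so the planned limma test was not run and values are descriptive. Members and lists were chosen with earlier results of these data known. The named genes are all members, the 2 genes with the highest mean of each list, markers and Elp3. Smr3a, Col17a1, Krt5, Acta2, Trp63, Ptprc, Cd3e, Gp9 and Fga were named after their values were seen. Rows naming several genes were left out of counts, and of several rows for a symbol the highest mean would be kept, but each member had 1. Some genes counted among the members and lists are not reported here. Starts were raised by 1 base. Exon overlaps come from GENCODE vM21 (GRCm38) and promoters from RefSeq. Python 3.11.15, pandas 2.3.3, numpy 2.4.6 and matplotlib 3.10.9 were used. The number of profiles, 3, limits the precision. Alternatives were scaling by median ratios or by quantiles, other pseudocounts and minimum levels, and leaving out each replicate number.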

Additional observations from a re-analysis of the deposited data

Results flagged for a closer look

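The authors' deposited table holds, beside the sample columns, a summary column whose header speaks of total FPKM. In it, 14 members stood above the highest of the 3 profiles, which a mean over these profiles could not give. Among members at 1 FPKM or more these were 10 of 28, or 35.7%, against 15.6% of all genes at that level. In the authors' deposited table the summary for the laminin chains was 52.4 FPKM for Lama5, 43.9 for Lamc1, 0.622 for Lama1 and 0.275 for Lamc3. For alpha subunits the authors' deposited summary was 13.3 FPKM for Itga8, 12.2 for Itga5, 2.5 for Itga7, 1.23 for Itga9 and 0.107 for Itgae. For beta subunits the authors' deposited summary was 31.4 FPKM for Itgb5 and 4.45 for Itgb8. For the others the authors' deposited summary was 22.7 FPKM for Plec, 11.6 for Nid1 and 1.53 for Nid2. Which samples the further values belong to is not given.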

How the results depend on the processing

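No paired analysis was possible because the 2 labels hold the same values under each replicate number, and no genotype test was run with or without a replicate block. The bound was 1.5 times the count, or 1 SD between profiles for levels and ratios. For the median difference between profiles, the SD was taken over the median differences of pairs of profiles. Of 27 alternatives other than leaving out a replicate, 23 stayed within these bounds. The others were the median level over members at 1 FPKM or more (22.1 FPKM, not 8.83) and the median difference between profiles, which was 0.31 with no minimum level and 0.52 with a pseudocount of 0.1 or 0.01. Leaving out each replicate number, that median lay between 0.18 and 0.40 and members differing by 1 or more numbered 1 to 4, both lower partly because fewer profiles enter. Members lowest in profile 1 numbered 17 under both scalings and members highest in profile 3 numbered 22. Leaving out replicates for these spreads and counts, and the count for profile 3, were added after seeing the data. Depth could not be assessed.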

Other observations

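In the authors' deposited table, 4 members stood in the summary column below the lowest of the 3 profiles: Itga3 at 103 FPKM, Itga6 at 76.0, Lamb1 at 21.7 and Itgb6 at 10.9. Among members at 1 FPKM or more this is 14.3%, against 17.6% of all genes at that level. On chromosome 7 the leukocyte genes Itgam, Itgax and Itgad follow each other, 11076 and 23288 bases apart, with no other row between them.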
